A study of Mus musculus with 6 samples.

Results

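The genes described here encode the proteins that join epithelial cells to each other: 47 genes for tight junctions and apical polarity (18 genes), adherens junctions (11), desmosomes (11), gap junctions (3) and other adhesion and epithelial splicing factors (4). The list was drawn up by name and function, with earlier results of these data known, and all 47 genes were found among the 27179 of the deposited table. RNA-seq was run on mouse embryonic stem cells (mESCs), which grow as compact colonies with an epithelial organisation. All 6 libraries came from cells that carry Tfe3-ERT2, a transcription factor of the MiT/TFE family fused to a modified estrogen receptor domain that holds it outside the nucleus until the ligand is added. The 4OHT group of 3 libraries had 48 h with 4-hydroxytamoxifen at 1 µg/mL, which moves the fusion into the nucleus, and the EtOH group of 3 had the vehicle, ethanol. Cells of both groups were kept on gelatin, without a feeder layer being mentioned, in medium with serum and LIF. The labels name neither the promoter that drives the fusion nor whether the line is a single clone. Cells without the fusion were not analysed here, so effects of nuclear Tfe3 and of the ligand itself cannot be told apart. Nothing in the labels ties the 3 libraries of a group to separate cultures, and the p-values therefore reflect variation among libraries that may be technical.

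Tight junctions seal the space between neighbouring cells, with claudins forming the strands and occludin, the tricellulin family and scaffold proteins organising them. Adherens junctions hold cells together through cadherins and nectins, which catenins and afadin connect to actin, whereas desmosomes tie cadherins of the desmoglein and desmocollin type to keratin filaments. Gap junctions are channels of connexins through which neighbouring cells exchange small molecules. In mouse ES cells, E-cadherin is the main cadherin and supports compact colony growth.

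Libraries held between 4092877 and 6427880 counts, and 16329 to 17000 genes had a count in each. A count of 3, taken as the floor of detection, was worth 0.469 to 0.738 CPM, the count scaled to a common library size. It takes only counting error into account. Tfe3 itself, whose count cannot separate the endogenous transcript from that of the fusion, was at 832, 836 and 827 CPM in the 4OHT libraries, against 1074, 1035 and 1004 CPM in the EtOH libraries. Its difference was -0.32 on the log2 scale, with a standard error (SE) of 0.03 and an adjusted p of 9.8e-19, and RNA is no measure of where the fusion protein lies. The 10 markers of undifferentiated ES cells summed to 5461 to 5507 CPM in the 4OHT libraries and 5472 to 5596 CPM in the EtOH libraries, with 4 of the 10 higher and 4 lower. Of 11 trophectoderm markers, 7 were tested and all 7 were higher with 4OHT. Their list summed to 992 to 1028 CPM in the 4OHT libraries and 463 to 486 CPM in the EtOH libraries. Most of that sum came from the keratins Krt8, at a mean of 489 CPM with 4OHT and 219 CPM with EtOH, and Krt18, at 371 CPM with 4OHT and 161 CPM with EtOH. The other 5 called markers were Krt7 and the factors Hand1, Eomes, Gata3 and Tfap2c. Hand1 averaged 8.96 CPM with 4OHT and 1.54 CPM with EtOH (adjusted p = 8.5e-14), Eomes 13.1 CPM with 4OHT and 4.97 CPM with EtOH (adjusted p = 1.1e-09), Gata3 7.93 CPM with 4OHT and 3.48 CPM with EtOH (adjusted p = 4.5e-05), and Tfap2c 75.4 CPM with 4OHT and 64.8 CPM with EtOH (adjusted p = 0.0082). Factors too low to test included Elf5 and Cdx2. Elf5 had 0, 1 and 0 counts in the 4OHT libraries and 0 in each EtOH library, and Cdx2 had 6, 8 and 12 counts in the 4OHT libraries and 14, 12 and 5 counts in the EtOH libraries. The part of trophectoderm markers, keratins included, in the junction results was not tested. The neural progenitor list summed to 92.9 to 103 CPM in the 4OHT libraries and 159 to 173 CPM in the EtOH libraries, with 2 of 4 tested genes lower, and the primitive endoderm list, with none of 3 called and Afp at 0, to at most 28.1 CPM with 4OHT and 23.0 CPM with EtOH. The mesoderm list summed to 3.69 to 5.31 CPM in the 4OHT libraries and 6.78 to 9.06 CPM in the EtOH libraries, with Kdr higher and the brachyury gene T lower, at 0, 5 and 4 counts in the 4OHT libraries and 22, 25 and 16 counts in the EtOH libraries (adjusted p = 1.1e-09). In bulk RNA, fewer cells of a type and less RNA per cell cannot be told apart.

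Of the 47 junction genes, 42 had enough counts to be tested, and 21 of them were higher and 9 lower with 4OHT, while 12 did not pass the test (edgeR quasi-likelihood test, Benjamini-Hochberg adjusted p under 0.05 over 12345 genes). Over all genes tested, 21.4% were called higher and 20.6% lower, 42.0% in all, against 71.4% of the junction genes tested. The junction genes were also more abundant than most genes, with a median of 72.8 CPM against 32.4 CPM over all tested genes, and calls were more frequent among abundant genes. Among genes with a mean of at least 10 CPM, a limit chosen after seeing the data, 47.4% were called, against 74.4% of junction genes (29 of 39, 21 higher and 8 lower). The median log2 fold change of 4OHT over EtOH was 0.13 over the junction genes and 0.00 over all genes. Most of the changes were small: called junction genes had a median absolute log2 fold change of 0.34, against 0.38 over all called genes. Called genes at 1.5-fold or more were 7 higher (Cldn4, Pard6b, Ctnna1, Nectin1, Dsp, Dsc2 and Gjb5) and 1 lower (Cdh3) of the 42, against 12.2% of all genes. In 30 of the 42 the 3 libraries of one group all lay above the 3 of the other, in 21 genes with 4OHT above and in 9 below, against 48.8% over all genes. That set differs from the called genes in Pkp2, which did not overlap and was not called, and in Ppl, which was called although its groups overlapped.

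**Figure D1:**
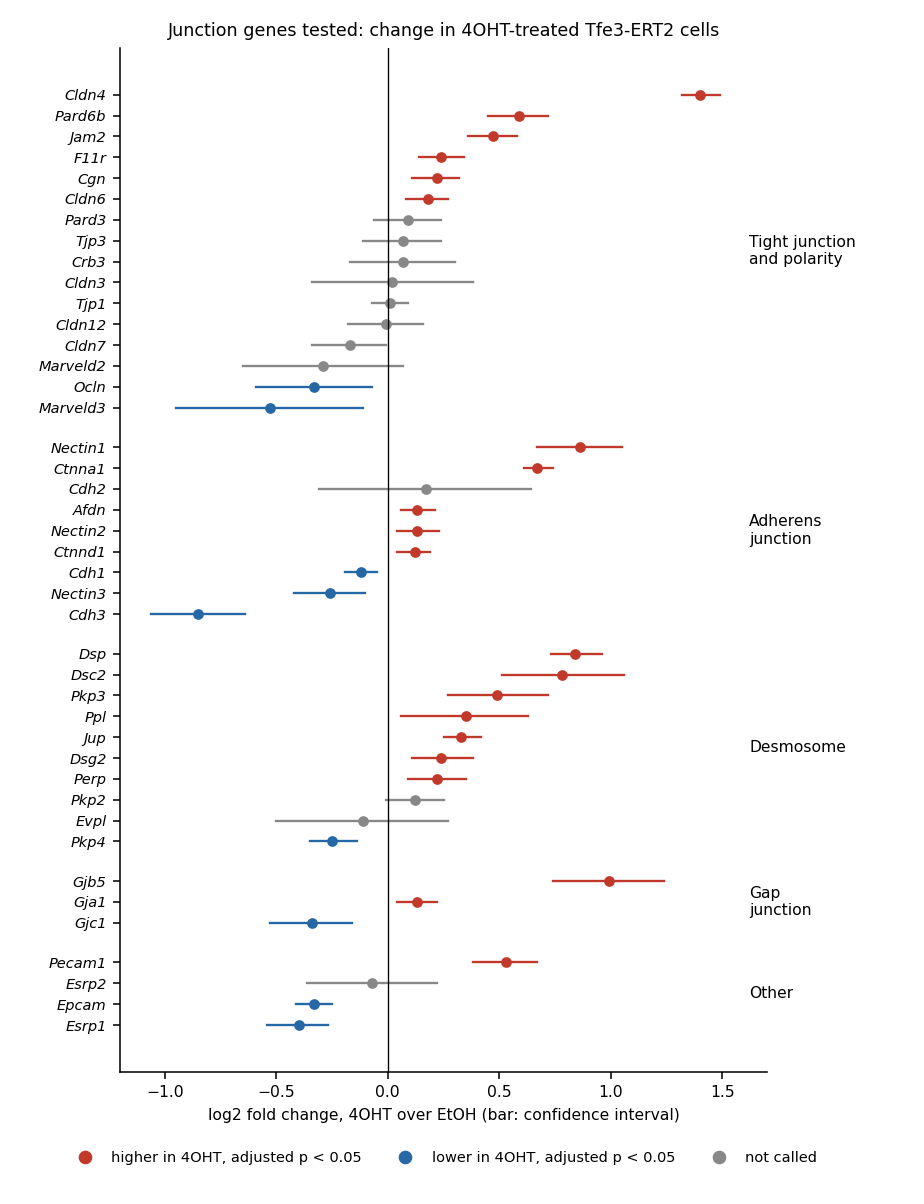
The log2 fold change of 4OHT over EtOH (horizontal axis) for the 42 junction genes tested, grouped by junction type. Points are edgeR estimates from 3 libraries a group, bars are 95% confidence intervals without correction for multiple tests, and colours mark the call. Cldn4 lies farthest to the right at 1.40 and Cdh3 farthest to the left at -0.85.

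Among the tight junction and polarity genes, 6 of 16 tested were higher, 2 were lower and 8 did not pass the test, with a median log2 fold change of 0.07. As many genes of this class were called as were not. The share called was 42.0% over all genes tested and 47.4% among those with a mean of at least 10 CPM. In its share of calls, this class thus lay near all genes. The claudin Cldn4 changed most. Cldn4, on chromosome 5 from 134945123 to 134946934 (GRCm38), had 412, 425 and 408 CPM in the 4OHT libraries, against 150.0, 165 and 157 CPM in the EtOH libraries. Every 4OHT library thus stood far above every EtOH library, at 415 ± 8.96 CPM with 4OHT and 157 ± 7.39 CPM with EtOH (SD, n = 3 each). The difference was 2.64-fold, a log2 fold change of 1.40 with an SE of 0.04 (adjusted p = 1.2e-88). Cldn3, a claudin at chromosome 5 from 134986214 to 134987476, lies 39.3 kb away with no protein-coding gene between them in the RefSeq annotation. It had 8.03, 11.5 and 10.9 CPM in the 4OHT libraries and 10.3, 11.8 and 8.36 CPM in the EtOH libraries. The groups overlapped, and the log2 fold change was 0.02 with a 95% confidence interval of -0.34 to 0.38 (adjusted p = 0.95). The ratio of Cldn4 to Cldn3, each per length, was 35.8, 25.7 and 26.0 in the 4OHT libraries, against 10.2, 9.77 and 13.1 in the EtOH libraries.

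Since this neighbouring pair differed in response, their promoter windows are shown, as RefSeq gives them for GRCm38.p6 (250 bases before to 50 bases after the gene's start). The window of Cldn4 is chr5:134946885-134947184, minus strand, and that of Cldn3 is chr5:134985964-134986263, plus strand. Capitals mark matches to CAGGTG on either strand, which reads CACCTG on the other strand and is known as the E2-box bound by Snai and Zeb repressors, and to CACGTG, the E-box bound by MiT/TFE and other helix-loop-helix factors.
Cldn4 promoter: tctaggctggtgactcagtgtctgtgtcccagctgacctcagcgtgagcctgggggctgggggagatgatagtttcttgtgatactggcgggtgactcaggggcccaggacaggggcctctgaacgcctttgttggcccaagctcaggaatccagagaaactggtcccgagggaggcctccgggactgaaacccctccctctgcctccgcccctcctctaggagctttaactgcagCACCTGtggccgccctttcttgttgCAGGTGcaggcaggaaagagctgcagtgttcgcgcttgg
Cldn3 promoter: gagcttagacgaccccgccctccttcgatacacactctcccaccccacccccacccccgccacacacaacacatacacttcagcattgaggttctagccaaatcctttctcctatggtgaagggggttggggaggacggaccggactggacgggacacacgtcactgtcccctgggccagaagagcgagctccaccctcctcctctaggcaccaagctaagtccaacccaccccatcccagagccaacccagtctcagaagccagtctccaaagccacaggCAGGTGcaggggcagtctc
Counted from the gene's start as 0, the Cldn4 window holds the E2-box letters at positions -14 and 11 and the Cldn3 window at position 31, and neither holds CACGTG. A match describes the letters only and is not evidence that a factor binds there.

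Windows were at hand for 26 of the 47 genes, and the 21 without one include Cdh1, Cdh3, Ctnna1, Nectin1 and Dsc2. CACGTG was found in 5 of the 26 (19.2%), against 8.09% of the 27025 genes with a window, and CAGGTG in 16 of the 26 (61.5%), against 22.6% of all genes. By window, the shares were 13.9% of 36 windows of junction genes against 7.15% of all 32851 windows for CACGTG, and 55.6% against 20.2% for CAGGTG. Neither comparison was matched for expression level or base composition, and whether junction genes differ in these letters was not tested. The E2-box letters were present in 6 of 12 genes that were higher, 3 of 4 that were lower, 6 of 8 that were not called and 1 of 2 that were not tested. AACCGGTT, the letters of the site bound by grainyhead-like factors, was in none of the 26, against 0.174% of all genes. Letters this rare would seldom occur in 26 genes, so their absence cannot set the junction genes apart. Matches to the 3 motifs did not overlap each other. The 5 genes with CACGTG were Cgn and Pard6b, which were higher, Epcam, which was lower, and Crb3 and Tjp3, which did not pass the test. Pard6b and Epcam are printed, since they moved in opposite directions. The windows are Pard6b at chr2:168080754-168081053, plus strand and Epcam at chr17:87635729-87636028, plus strand, with the same use of capitals.
Pard6b promoter: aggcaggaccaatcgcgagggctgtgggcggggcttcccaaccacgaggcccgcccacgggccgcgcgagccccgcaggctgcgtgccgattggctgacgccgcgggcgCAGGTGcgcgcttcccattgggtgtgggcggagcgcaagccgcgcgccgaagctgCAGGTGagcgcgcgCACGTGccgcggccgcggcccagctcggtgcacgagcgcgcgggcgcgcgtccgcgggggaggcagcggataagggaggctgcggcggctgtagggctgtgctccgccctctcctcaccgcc
Epcam promoter: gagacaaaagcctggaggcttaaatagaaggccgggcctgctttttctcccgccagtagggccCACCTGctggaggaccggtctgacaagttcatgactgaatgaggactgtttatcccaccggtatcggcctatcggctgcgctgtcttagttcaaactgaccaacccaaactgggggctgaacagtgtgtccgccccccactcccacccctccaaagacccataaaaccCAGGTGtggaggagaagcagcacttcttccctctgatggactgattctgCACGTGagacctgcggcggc
CACGTG starts at position -72 in the Pard6b window and at position 30 in the Epcam window, and E2-box letters at positions -141 and -86 in Pard6b and at -187 and -19 in Epcam.

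The other claudins differed less than Cldn4. Cldn6, which with Cldn4 made up most of the claudin RNA, had 179, 199.8 and 187 CPM in the 4OHT libraries, against 167, 165 and 168 CPM in the EtOH libraries, without overlap, a log2 fold change of 0.18 (SE 0.05, adjusted p = 0.001). Cldn7 had 53.8, 45.8 and 47.3 CPM in the 4OHT libraries and 50.1, 60.4 and 54.9 CPM in the EtOH libraries. Its groups overlapped and it missed the threshold at a log2 fold change of -0.17 (adjusted p = 0.080), but it passed at -0.24 without 4OHT library 1 (adjusted p = 0.034) or without EtOH library 1 (adjusted p = 0.032), within a range of 0.032 to 0.41 over the alternatives. Cldn12 was at 46.2 CPM with 4OHT and 46.5 CPM with EtOH, with an interval of -0.18 to 0.16 for its log2 fold change. Cldn9 and the endothelial claudin Cldn5 were too low to test. Cldn9 had 8, 5 and 6 counts in the 4OHT libraries and 8, 6 and 7 in the EtOH libraries, and Cldn5 had 0, 1 and 1 counts in the 4OHT libraries and 3, 5 and 2 in the EtOH libraries.

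In levels per length, Cldn4 and Cldn6 changed places. Cldn4 came first among the tight junction genes in the 4OHT libraries, at a mean of 229 CPM per kb of transcript, ahead of Cldn6 at 125 CPM per kb. In the EtOH libraries Cldn6 came first at 111 CPM per kb, ahead of Cldn4 at 86.7 CPM per kb, and the ranges of the pair did not overlap in either group. Cldn4 accounted for 56.1 ± 0.466% of the summed claudin level with 4OHT and 33.8 ± 0.530% with EtOH (SD, n = 3 each), and Cldn6 for 30.6 ± 1.06% with 4OHT and 43.2 ± 1.64% with EtOH. The summed level of the 7 claudins was 408 ± 9.92 CPM per kb with 4OHT and 256 ± 8.41 CPM per kb with EtOH. These shares and sums are single values per library, and an exact 2-sided permutation test of 3 libraries against 3 cannot give a p below 0.10. It gave 0.10 for 26 of the 32 shares, sums and ratios computed, or 0.12 after Benjamini-Hochberg adjustment over the 32.

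**Figure D2:**
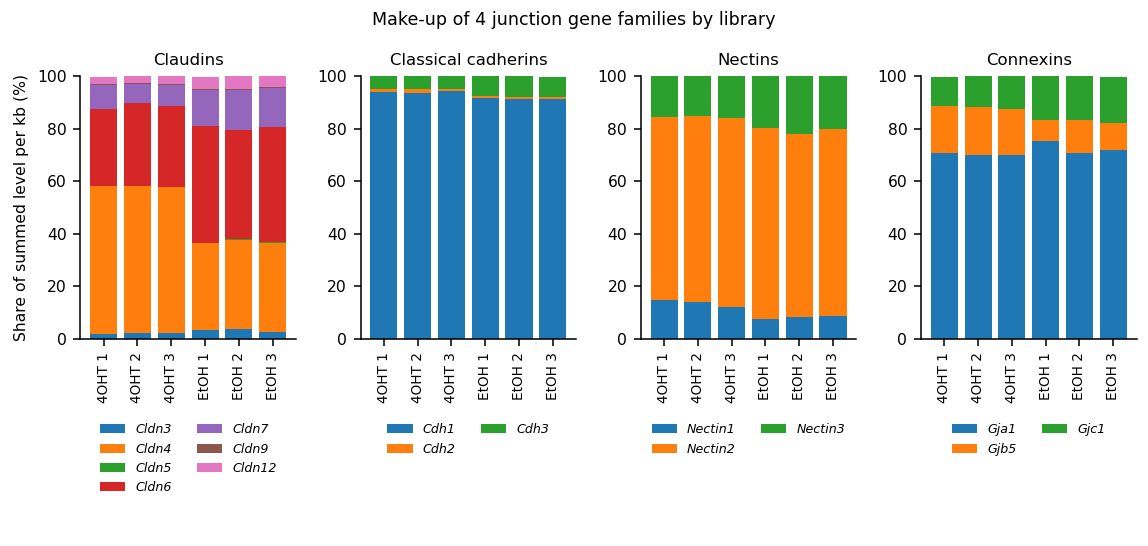
Share of each gene in the summed level per kb of its family (vertical axis, in percent) in each of the 3 4OHT and 3 EtOH libraries, for claudins, classical cadherins, nectins and connexins. The segment of Cldn4 is larger in every 4OHT library, at 55.8% to 56.6%, than in any EtOH library, at 33.2% to 34.2%.

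The strand proteins with a MARVEL domain were low and did not follow Cldn4. Ocln, which encodes occludin, had 17.8, 17.9 and 16.7 CPM in the 4OHT libraries, against 21.1, 19.9 and 24.8 CPM in the EtOH libraries, all 3 below, and its log2 fold change was -0.33 (SE 0.13, adjusted p = 0.037). Marveld3 had 6.73, 7.03 and 5.15 CPM in the 4OHT libraries, against 9.26, 9.72 and 7.87 CPM in the EtOH libraries, a log2 fold change of -0.53 (SE 0.21, adjusted p = 0.035). Neither of these calls was firm. For Ocln the adjusted p was 0.056 without 4OHT library 1, 0.12 without 4OHT library 3, 0.058 without EtOH library 1, 0.22 without EtOH library 3 and 0.14 with DESeq2, in a range of 0.026 to 0.22 over the alternatives. For Marveld3 it was 0.20 without 4OHT library 3, 0.10 without EtOH library 1, 0.12 without EtOH library 2 and 0.15 with DESeq2, in a range of 0.025 to 0.20. Marveld2, which encodes tricellulin and lies 43.2 kb from Ocln on chromosome 13, was at 9.55 ± 1.72 CPM with 4OHT and 11.7 ± 2.16 CPM with EtOH, and its interval ran from -0.65 to 0.07.

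Of the junctional adhesion molecules, immunoglobulin-type proteins of tight junctions, Jam2 and F11r rose. Jam2 had 133, 147 and 144 CPM in the 4OHT libraries, against 98.7, 105 and 104 CPM in the EtOH libraries, a log2 fold change of 0.47 (SE 0.06, adjusted p = 6.9e-14). F11r, the gene of the junctional adhesion molecule A, had 163, 159 and 147 CPM in the 4OHT libraries, against 134, 129.5 and 132 CPM in the EtOH libraries, a log2 fold change of 0.24 (SE 0.05, adjusted p = 3.1e-05). In both genes every 4OHT library lay above every EtOH library. The related Jam3, from the further lists and named after its value was seen, went the other way without passing the test, at 10.3 ± 1.78 CPM with 4OHT and 13.4 ± 1.82 CPM with EtOH (log2 fold change -0.38, adjusted p = 0.061). The cytoplasmic scaffolds were split. Cgn, the gene of cingulin, which connects the junction to the cytoskeleton, had 151, 144 and 135 CPM in the 4OHT libraries and 127, 121 and 121 CPM in the EtOH libraries (log2 fold change 0.22, adjusted p = 0.00031). Tjp1, the main zonula occludens scaffold, was at 316, 292 and 296 CPM in the 4OHT libraries and 293, 306 and 297 CPM in the EtOH libraries. Its groups overlapped and its interval of -0.07 to 0.09 covers 0. The interval of Tjp3, a related scaffold, was -0.11 to 0.24.

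Of the apical polarity genes, Pard6b changed and its partners in the list did not pass the test. Pard6b, an adaptor of the Par polarity complex, had 100.1, 93.4 and 98.9 CPM in the 4OHT libraries, against 66.9, 63.7 and 63.7 CPM in the EtOH libraries. The groups were well apart, and the log2 fold change was 0.59 (SE 0.07, adjusted p = 1.4e-14). Pard3, the scaffold of that complex, was at 63.7 ± 3.34 CPM with 4OHT and 59.8 ± 2.15 CPM with EtOH, with an interval of -0.06 to 0.24. Crb3, the apical crumbs protein of epithelia, was at 25.8 ± 4.53 CPM with 4OHT and 24.9 ± 2.34 CPM with EtOH, with an interval of -0.17 to 0.30. Prkci, a polarity gene of the further lists named after its value was seen, was higher. It averaged 249.9 CPM with 4OHT and 216 CPM with EtOH (log2 fold change 0.21, adjusted p = 1.4e-05). Pard6a, Pard6g and Prkcz, from the same list and likewise named, did not pass the test.

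**Figure D3:**
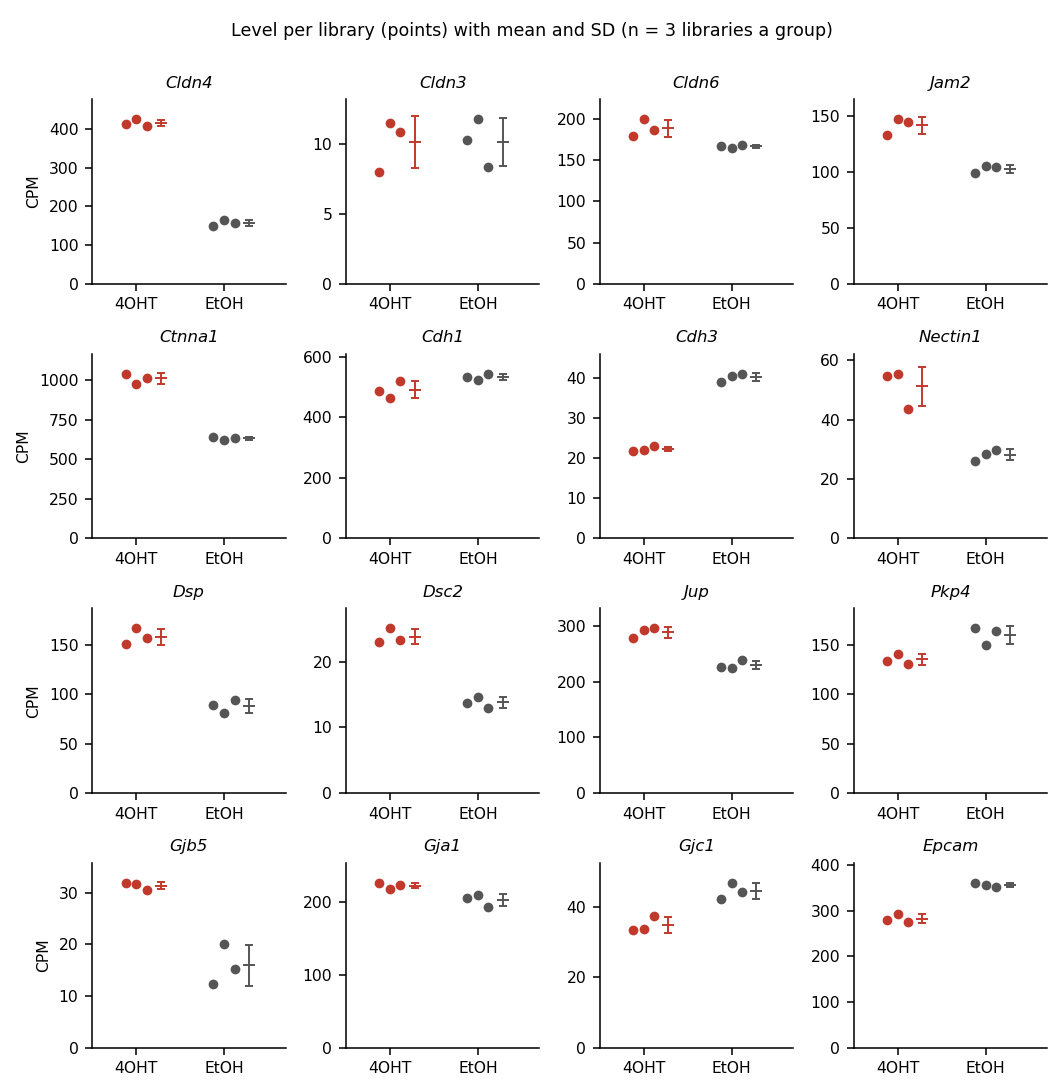
Level in CPM (vertical axis, from 0) of 16 junction genes in each library, as points, with the mean and SD of 3 libraries beside them, 4OHT at the left and EtOH at the right of each panel. The groups of Cldn4, Ctnna1, Dsp, Gjb5 and Cdh3 are far apart, and those of Cldn3 overlap.

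In the adherens junction, 5 of 9 genes tested were higher, 3 were lower and 1 did not pass the test, with a median log2 fold change of 0.13. The share called was 88.9%, against 42.0% over all genes tested. Of the cadherins Cdh1, Cdh2 and Cdh3, Cdh1 and Cdh3 were lower and Cdh2 did not pass, whereas the catenin genes Ctnna1 and Ctnnd1 were higher. Cdh1, which encodes E-cadherin, had 489, 465 and 521 CPM in the 4OHT libraries, against 533, 524 and 545 CPM in the EtOH libraries. All 3 4OHT libraries lay below the EtOH libraries, but the difference was small, 1.09-fold (log2 fold change -0.12, SE 0.04, adjusted p = 0.0045), and the adjusted p was 0.089 without 4OHT library 2, in a range of 0.00045 to 0.089 over the alternatives. Cdh3, which encodes P-cadherin and lies 46.4 kb from Cdh1 on chromosome 8 (106510852 to 106556911, Cdh1 at 106603350 to 106670247), fell more. It had 21.9, 22.0 and 23.0 CPM in the 4OHT libraries, against 39.1, 40.5 and 41.1 CPM in the EtOH libraries. The groups were tight and far apart, and Cdh3 was 1.80-fold lower (log2 fold change -0.85, SE 0.11, adjusted p = 1.2e-12). Cdh2, the N-cadherin gene of mesenchymal and neural cells, was low and its groups overlapped, with 6.29, 7.21 and 5.15 CPM in the 4OHT libraries and 5.64, 4.97 and 5.90 CPM in the EtOH libraries. Its interval, -0.31 to 0.64, was wide. Cdh1 made up 94.1 ± 0.398% of the summed level of these 3 cadherins with 4OHT and 91.5 ± 0.145% with EtOH. The endothelial cadherin Cdh5 had 2, 1 and 1 counts in the 4OHT libraries and 2, 0 and 0 in the EtOH libraries, and was not tested.

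Ctnna1, which encodes alpha-catenin, the protein that connects the cadherin complex to actin, had the highest level per length of the 11 adherens junction genes in both groups. It had 1042, 976 and 1017 CPM in the 4OHT libraries, against 643, 625 and 635 CPM in the EtOH libraries, or 1012 ± 33.5 CPM with 4OHT and 634 ± 9.05 CPM with EtOH (SD, n = 3 each). No library of one group came near the other, and the difference was 1.60-fold (log2 fold change 0.67, SE 0.03, adjusted p = 2.6e-53). The gene lies on chromosome 18 from 35118902 to 35254776. Its ratio to Cdh1 per length was 2.47 ± 0.115 with 4OHT and 1.43 ± 0.0248 with EtOH. Ctnna2, the neural alpha-catenin, had at most 3 counts in any library. Ctnnd1, a gene of the delta-catenin family whose protein keeps cadherins at the membrane, had 438, 428 and 459.8 CPM in the 4OHT libraries, against 399, 415 and 409 CPM in the EtOH libraries (log2 fold change 0.12, adjusted p = 0.0061). Its call was lost without 4OHT library 3 (adjusted p = 0.086) and without EtOH library 1 (adjusted p = 0.060), with 0.0011 to 0.086 over the alternatives. Of its exon bases, 61.2% are shared with another gene model on the same strand, Gm28635, so its count is uncertain.

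The nectins, adhesion molecules that start cell contacts, changed in different directions. Nectin1 had 54.7, 55.5 and 43.7 CPM in the 4OHT libraries, against 26.2, 28.5 and 29.8 CPM in the EtOH libraries. Even the lowest 4OHT library was well above the EtOH libraries, and the difference was 1.82-fold (log2 fold change 0.86, SE 0.10, adjusted p = 4.1e-15). Nectin3 had 47.5, 50.3 and 47.8 CPM in the 4OHT libraries, against 56.6, 61.5 and 56.1 CPM in the EtOH libraries, a log2 fold change of -0.26 (SE 0.08, adjusted p = 0.0058, or 0.053 without EtOH library 2, in a range of 0.0051 to 0.053). Nectin2, the most abundant of the 3, had 175, 195 and 180.1 CPM in the 4OHT libraries, against 175, 161 and 165 CPM in the EtOH libraries. The groups all but touched, and the log2 fold change was the smallest of the nectins, 0.13 (adjusted p = 0.017). Its adjusted p was 0.15 without 4OHT library 2, 0.11 without EtOH library 2, 0.058 without EtOH library 3 and 0.11 with DESeq2, in a range of 0.010 to 0.15. Its share of the summed nectin level was 70.9 ± 1.30% with 4OHT and 71.2 ± 1.71% with EtOH (exact permutation p = 0.80). Nectin1 took 13.5 ± 1.44% with 4OHT and 8.18 ± 0.675% with EtOH, and Nectin3 15.6 ± 0.336% with 4OHT and 20.6 ± 1.31% with EtOH. Afdn, the gene of afadin, which connects nectins to actin, had 442, 427 and 437 CPM in the 4OHT libraries, against 397, 411 and 380.4 CPM in the EtOH libraries (log2 fold change 0.13, adjusted p = 0.0017).

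**Figure D4:**
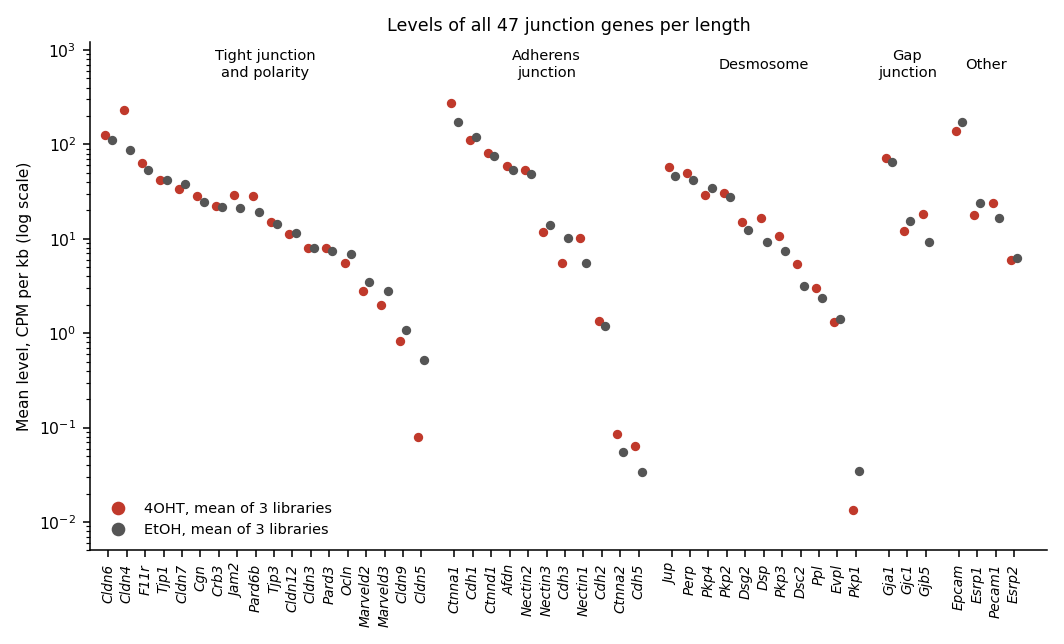
Mean level of all 47 junction genes in CPM per kb of transcript (vertical axis, log scale), 4OHT in red at the left and EtOH in grey at the right of each gene, ordered within each junction type by the mean level in EtOH libraries. The lowest genes, Cldn9, Cldn5, Cdh5, Ctnna2 and Pkp1, had too few counts to test.

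Desmosome genes were mostly higher: 7 of 10 tested were higher, 1 was lower and 2 did not pass the test, with a median log2 fold change of 0.29. The share called was 80.0%, against 42.0% over all genes tested. Dsp, which encodes desmoplakin, the protein that binds keratin filaments to the desmosome, had 151, 167 and 157 CPM in the 4OHT libraries, against 89.4, 80.9 and 94.7 CPM in the EtOH libraries. The groups did not overlap, and Dsp was 1.80-fold higher (log2 fold change 0.84, SE 0.06, adjusted p = 1.4e-34). The gene lies on chromosome 13 from 38151294 to 38198577, and 5.17% of its exon bases are also covered by the antisense model Gm10129. Its promoter window, chr13:38151044-38151343, plus strand, is shown as that of the desmosome gene with the largest change, with the E2-box letters at position 3 in capitals.
Dsp promoter: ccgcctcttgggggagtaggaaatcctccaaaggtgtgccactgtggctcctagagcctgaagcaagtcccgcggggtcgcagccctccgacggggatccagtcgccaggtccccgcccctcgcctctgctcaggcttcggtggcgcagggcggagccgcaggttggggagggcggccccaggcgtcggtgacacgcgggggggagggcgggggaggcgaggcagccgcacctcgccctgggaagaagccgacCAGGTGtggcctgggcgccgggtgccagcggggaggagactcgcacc
The keratin genes Krt8 and Krt18, whose filaments desmosomes anchor, were higher by 1.16 and 1.21 on the log2 scale (adjusted p = 2.2e-78 and 1.8e-75).

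The desmosomal cadherins were both higher. Dsc2, a desmocollin, had 23.0, 25.1 and 23.3 CPM in the 4OHT libraries, against 13.7, 14.7 and 13.0 CPM in the EtOH libraries, 1.72-fold higher (log2 fold change 0.78, SE 0.14, adjusted p = 3.7e-07). Dsg2, a desmoglein, had 90.9, 83.3 and 81.5 CPM in the 4OHT libraries, against 72.7, 72.6 and 70.1 CPM in the EtOH libraries, a log2 fold change of 0.24 (adjusted p = 0.0020). Neither gene had overlapping groups. The other desmogleins and desmocollins, 7 genes, were too low to test, and 5 of them had 0 counts in every library, which allows up to 0.469 to 0.738 CPM.

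Of the armadillo proteins that connect desmosomal cadherins to desmoplakin, Jup and Pkp3 were higher and Pkp4 lower. Jup, the plakoglobin gene, which also serves adherens junctions, had 278, 292 and 296 CPM in the 4OHT libraries, against 227, 224 and 239 CPM in the EtOH libraries, 1.26-fold higher (log2 fold change 0.33, SE 0.04, adjusted p = 2.5e-12). Pkp3, an epithelial plakophilin, had 30.6, 31.4 and 34.5 CPM in the 4OHT libraries, against 23.0, 26.0 and 19.7 CPM in the EtOH libraries (log2 fold change 0.49, adjusted p = 0.00011). Pkp4, a relative that is also found at adherens junctions, had 134, 141 and 131 CPM in the 4OHT libraries, against 167, 149.6 and 164 CPM in the EtOH libraries, 1.19-fold lower (log2 fold change -0.25, SE 0.05, adjusted p = 1.6e-05). All 3 genes had groups without overlap. Pkp2 had 89.0, 87.5 and 86.7 CPM in the 4OHT libraries and 83.0, 81.6 and 77.5 CPM in the EtOH libraries. Its groups did not overlap either, but its log2 fold change of 0.12 (95% confidence interval -0.01 to 0.25) had an adjusted p of 0.15. Jup made up 45.1 ± 0.818% of the summed level of plakoglobin and the 4 plakophilins with 4OHT and 39.5 ± 1.26% with EtOH, and Pkp4 22.9 ± 0.839% with 4OHT and 29.9 ± 1.26% with EtOH. Pkp1 had at most 1 count in any library.

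Of the remaining desmosome genes, Perp, which encodes a membrane protein of desmosomes, had 96.1, 90.9 and 94.8 CPM in the 4OHT libraries, against 84.6, 84.3 and 72.6 CPM in the EtOH libraries (log2 fold change 0.22, adjusted p = 0.0037). Its call was lost without EtOH library 3 (adjusted p = 0.084, in a range of 0.0024 to 0.084). The plakins Ppl and Evpl, whose proteins join desmosomes to filaments in stratified epithelia, were low. Ppl had 16.3, 20.4 and 19.8 CPM in the 4OHT libraries and 15.1, 16.7 and 12.8 CPM in the EtOH libraries. The groups overlapped, and the call was weak at a log2 fold change of 0.35 (adjusted p = 0.042). It was lost without 4OHT library 2 (adjusted p = 0.13), 4OHT library 3 (0.14), EtOH library 1 (0.090) or EtOH library 3 (0.20) and with DESeq2 (0.18), in a range of 0.019 to 0.20. Evpl was at 8.45 ± 0.649 CPM with 4OHT and 9.10 ± 0.966 CPM with EtOH, with an interval of -0.50 to 0.27.

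All 3 gap junction genes passed the test, 2 higher and 1 lower, where 42.0% of all genes tested were called. Gjb5, a beta connexin, had 31.9, 31.6 and 30.6 CPM in the 4OHT libraries, against 12.3, 20.1 and 15.3 CPM in the EtOH libraries. The 4OHT libraries were close together and above the EtOH libraries, which varied more, and the difference was 1.98-fold (log2 fold change 0.99, SE 0.13, adjusted p = 2.9e-12). Gja1, the main connexin of ES cells, had 227, 219 and 224 CPM in the 4OHT libraries, against 206, 209.8 and 194 CPM in the EtOH libraries, 1.10-fold higher (log2 fold change 0.13, SE 0.04, adjusted p = 0.010). That call was lost without EtOH library 3 (adjusted p = 0.098) and with DESeq2 (adjusted p = 0.068), in a range of 0.0056 to 0.098. Gjc1, a gamma connexin, had 33.4, 33.7 and 37.3 CPM in the 4OHT libraries, against 42.3, 46.8 and 44.3 CPM in the EtOH libraries, 1.27-fold lower (log2 fold change -0.34, SE 0.09, adjusted p = 0.0012). In levels per length, Gjb5 and Gjc1 changed places behind Gja1. Gjb5 was at 18.4 CPM per kb and Gjc1 at 12.0 CPM per kb in the 4OHT libraries, whereas Gjb5 was at 9.32 CPM per kb and Gjc1 at 15.3 CPM per kb in the EtOH libraries, without overlap in either group. Gjb5 lies on chromosome 4 from 127354809 to 127358164.

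Of the other adhesion and epithelial genes, 1 was higher, 2 were lower and 1 did not pass the test, where 42.0% of all genes tested were called. Epcam, an epithelial adhesion molecule that is abundant in ES cells, had 279, 293 and 276 CPM in the 4OHT libraries, against 361, 356 and 352 CPM in the EtOH libraries. The groups were far apart, with Epcam 1.26-fold lower (log2 fold change -0.33, SE 0.04, adjusted p = 1.1e-13). Esrp1, a splicing regulator that produces epithelial isoforms, had 69.2, 69.3 and 70.3 CPM in the 4OHT libraries, against 99.5, 81.2 and 95.0 CPM in the EtOH libraries, 1.32-fold lower (log2 fold change -0.40, SE 0.07, adjusted p = 1.0e-07). Its paralog Esrp2 was at 15.9 ± 0.496 CPM with 4OHT and 16.8 ± 2.97 CPM with EtOH, with overlapping groups and an interval of -0.36 to 0.22. Pecam1, an adhesion molecule of endothelium that mouse ES cells also carry, had 77.9, 84.4 and 75.6 CPM in the 4OHT libraries, against 58.4, 54.0 and 52.2 CPM in the EtOH libraries, 1.44-fold higher (log2 fold change 0.53, adjusted p = 1.9e-10). The endothelial marker list summed to 35.5 to 39.5 CPM in the 4OHT libraries and 34.7 to 38.0 CPM in the EtOH libraries, with 1 of 4 tested markers higher and 1 lower and Emcn at 0 in all libraries.

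To set these genes beside the rest of the junction machinery, 118 further genes were listed, of which 117 were in the table and 55 had enough counts to test. Of the 55, 23 were higher, 6 lower and 26 did not pass the test (52.7% called), with a median log2 fold change of 0.15. The share called over all genes tested was 42.0%. In the tight junction and polarity list, 6 of 20 were higher and 3 lower (45.0% called). The angiomotins, membrane-associated scaffolds that bind polarity proteins and Hippo pathway factors, were higher together. Amot averaged 69.8 ± 4.33 CPM with 4OHT and 27.9 ± 3.23 CPM with EtOH (2.47-fold, log2 fold change 1.31, adjusted p = 2.6e-33). Amotl1 averaged 126 CPM with 4OHT and 84.6 CPM with EtOH, and Amotl2 241 CPM with 4OHT and 185 CPM with EtOH (adjusted p = 5.1e-17 and 7.4e-14). Ybx3, an RNA- and DNA-binding protein that associates with zonula occludens scaffolds, was lower, at 330.1 CPM with 4OHT and 472 CPM with EtOH (adjusted p = 9.4e-30).

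In the adherens junction list, 8 of 17 were higher and 2 lower (58.8% called, against 42.0% over all genes tested). Ctnnb1, the gene of beta-catenin, which joins cadherins to alpha-catenin and also acts in Wnt signalling, averaged 1232 ± 21.0 CPM with 4OHT and 897 ± 22.0 CPM with EtOH (1.37-fold, log2 fold change 0.46, adjusted p = 7.4e-34). Ctnnb1 was thus higher, as were Ctnna1, Ctnnd1 and Jup, while Cdh1 was lower. Of these, Ctnnd1 (log2 fold change 0.12) and Cdh1 (-0.12) changed little, and both calls were lost in some alternatives of the processing. Pvr, the nectin-like poliovirus receptor, averaged 83.3 ± 1.45 CPM with 4OHT and 36.1 ± 5.18 CPM with EtOH (2.31-fold, adjusted p = 2.6e-34). Ctnnal1, an alpha-catenin-like gene, averaged 138 CPM with 4OHT and 105 CPM with EtOH (log2 fold change 0.40, adjusted p = 1.7e-10). The cadherin Cdh4, named after its value was seen, was called higher, unlike Cdh1 and Cdh3. It was low, at 8.57 ± 2.33 CPM with 4OHT and 5.86 ± 1.32 CPM with EtOH. Its groups overlapped (log2 fold change 0.56, adjusted p = 0.034).

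Of the epithelial and mesenchymal factors and markers, 7 of 14 were higher and 1 lower (57.1% called, against 42.0% over all genes tested). Both kinds were among the higher genes. Snai1, a repressor known for binding the E-cadherin gene in epithelial-mesenchymal transition, averaged 8.45 ± 1.03 CPM with 4OHT and 2.09 ± 1.17 CPM with EtOH (3.88-fold, log2 fold change 1.96, adjusted p = 9.1e-10), both low levels. The related repressor Zeb1, named after its value was seen, averaged 14.6 CPM with 4OHT and 7.54 CPM with EtOH (log2 fold change 0.95, adjusted p = 2.9e-06). Fn1, the fibronectin gene, a mesenchymal marker that ES cells also express, averaged 2782 ± 11.3 CPM with 4OHT and 2002 ± 33.2 CPM with EtOH (log2 fold change 0.47, adjusted p = 1.7e-42). Vim, the vimentin gene, also chosen after its value was seen, was at 43.6 CPM with 4OHT and 46.0 CPM with EtOH, with an interval of -0.24 to 0.11. The epithelial transcription factors Klf5 and Elf3 were higher by 0.33 and 0.47 on the log2 scale (adjusted p = 1.8e-11 and 4.9e-08). Grhl1, a grainyhead-like epithelial factor and the lower call of the list, averaged 12.8 ± 0.918 CPM with 4OHT and 19.0 ± 1.45 CPM with EtOH (log2 fold change -0.58, adjusted p = 0.00054). The epithelial factors Grhl2, Grhl3 and Ovol2 did not pass the test, at log2 fold changes of -0.13, -0.19 and -0.12. These 4 were likewise named after their values were seen. The fibroblast marker list summed to 17.5 to 21.9 CPM in the 4OHT libraries and 13.5 to 21.4 CPM in the EtOH libraries, with none of its 3 tested genes called, so the groups overlapped in that list.

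**Figure D5:**
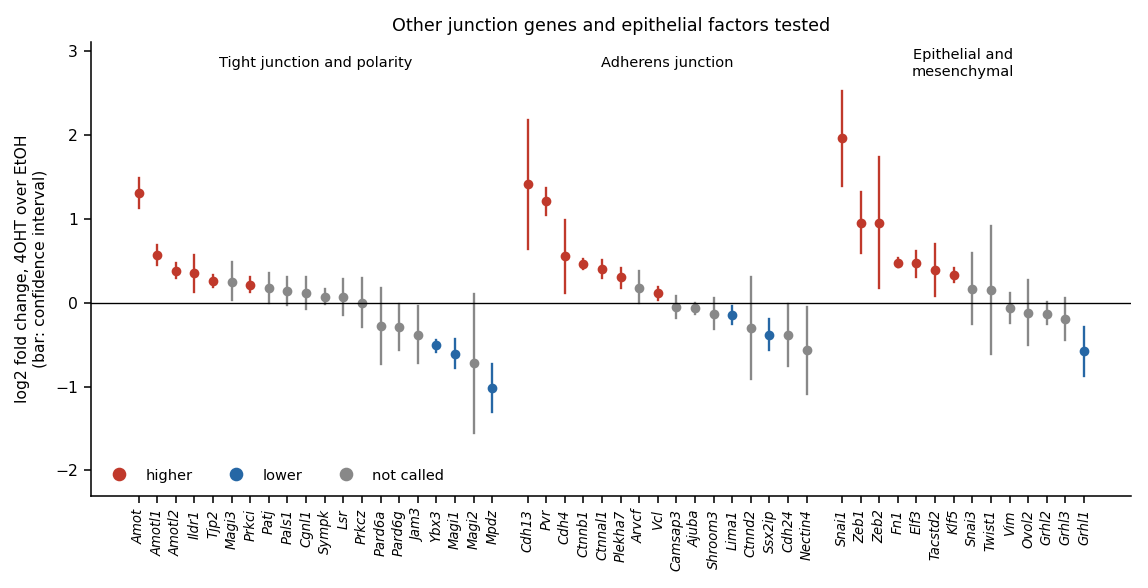
The log2 fold change of 4OHT over EtOH (vertical axis) for 50 of the genes tested in the further tight junction, adherens junction and epithelial or mesenchymal lists. Points are edgeR estimates from 3 libraries a group, bars are 95% confidence intervals without correction for multiple tests, and colours mark the call, with Snai1 highest at 1.96 and Mpdz lowest at -1.02.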

How the data were processed

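The deposited table holds raw counts per gene for 6 libraries, which the authors made from TruSeq Stranded mRNA libraries, per the labels' protocols. The submitters' processing notes name fastp, STAR, featureCounts and the build mm10. Neither their versions nor the strand setting of the counting is given there, so reads of 10 junction genes that share exon bases with an opposite-strand model may be mixed.

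The counts were tested with edgeR 4.0.16 (TMM scaling, filterByExpr with a minimum count of 10 and total of 15, robust quasi-likelihood fit, no covariate), which kept 12345 genes, with Benjamini-Hochberg adjustment over all of them and a threshold of 0.05. CPM are counts over the TMM-scaled library size, CPM per kb divides by the table's gene length, SE is the log2 fold change over the square root of F, and intervals are 95% and unadjusted. Rows without a symbol (1314 rows, 0.411% to 0.478% of counts), which carry Entrez identifiers, were kept. Tests were tried on simulated data. Alternatives were DESeq2 1.42.0 and limma-voom 3.58.1, other scaling and filters, a stricter threshold of 0.01, a replicate block and leaving out each library.

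All 47 junction genes are reported. From each further list the named genes are the called ones ranking in the first 4 by p, and some of these are not reported here. Members and lists were chosen with earlier results of these data known. Positions are from RefSeq, GRCm38.p6.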

Additional observations from a re-analysis of the deposited data

How the results depend on the processing

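Over 13 alternatives, 21 of the 30 called junction genes kept call and direction in each one, and the other 9 (Cdh1, Ctnnd1, Nectin2, Nectin3, Ocln, Marveld3, Ppl, Gja1 and Perp) lost the call in at least 1, without a reversal. The number of higher genes ran from 17 (without EtOH library 3) to 21 and that of lower genes from 7 to 9. Tight junction genes called lower were 0, not 2, without a filter, with DESeq2 and at an adjusted p of 0.01, and 0 to 2 when 1 library was left out. Gap junction genes called higher were 1, not 2, with DESeq2 and at 0.01, and 1 to 2 when 1 library was left out. Of the 12 genes not called, 6 changed sign when 1 library was left out, with log2 fold changes from -0.09 to 0.14 for Cldn3, -0.07 to 0.05 for Cldn12, -0.02 to 0.03 for Tjp1, -0.04 to 0.12 for Tjp3, -0.08 to 0.20 for Crb3 and -0.21 to 0.05 for Esrp2. The cause was not tested. With the replicate number as a block, 21 junction genes were higher and 9 lower, as without it, and 2585 and 2497 of all genes. Libraries with the same number did not deviate together (correlations -0.0226, -0.0161 and -0.017). These values cannot show whether such libraries shared a culture or day, since a shared source with little effect would give the same. The 3 widest intervals, those of Cdh2, Marveld3 and Evpl, belonged to genes under 10 CPM in both groups, and 5 junction genes were too low to test.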
